A study of Homo sapiens with 6 samples.

Results

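The SLC25A genes encode the mitochondrial carrier family, and their transcripts were compared between ME-1 leukaemia cells with and without added SPNS2. ME-1 cells are an established line of human acute myeloid leukaemia with the CBFB::MYH11 fusion gene. One group of 3 libraries came from cells transduced with an empty vector, and the other group of 3 came from cells transduced to overexpress SPNS2, an exporter of sphingosine-1-phosphate. Cells of both groups had been selected for the vector before RNA was taken, and neither label gives a clone, a dose or a time. Members were the rows whose Ensembl ID maps to a protein-coding symbol of the form SLC25A plus a number, which gave 47 of 34371 rows. RefSeq lists 48 such genes, and 1 of them was not analysed here.

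Mitochondrial carriers are membrane proteins built from repeats of one related domain, and most sit in the inner mitochondrial membrane. Each moves a small set of metabolites, nucleotides, cofactors or ions between the cytosol and the matrix, often by exchanging one for another. The family is known for supplying the ATP synthase with ADP and phosphate, for the malate-aspartate and citrate shuttles, and for bringing iron, glycine and glutathione to the sites of haem and iron-sulphur cluster synthesis in blood cells.

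Libraries held 28605187 to 38489992 counts. Levels are given as CPM, counts scaled to library size with TMM, and 3 counts, the limit that a count of 0 allows in a library, come to 0.0779 to 0.105 CPM for counting error alone. Nothing in the labels states that libraries of a group are separate cultures, so the p-values measure the spread between these samples only, and that spread may be technical. The vector SPNS2 sequence held 9, 3 and 0 counts in the empty vector libraries and 25283, 24792 and 25752 in the SPNS2 libraries. All 6 markers of myeloid leukaemia cells had counts in every library. The groups did not overlap for 5 of the 6, beside 40.1% of all 13308 features tested (features with TMM scaling). KIT stood at 1531 to 1577 CPM with the empty vector and 2256 to 2323 CPM with SPNS2, and CD33 at 37.2 to 37.4 and 21.9 to 24.0. PTPRC was at 79.6 to 87.7 and 98.8 to 102, CD34 at 119 to 121 and 97.9 to 106, and CBFB at 51.1 to 52.5 and 53.1 to 57.2 CPM (markers without TMM scaling). Of 15 markers of other cell types, MS4A1, HBB, HBA1 and KRT19 were at 0 everywhere. The summed level of the 15 was 128 to 136 CPM and 149 to 150 CPM, nearly all of it EPCAM, and 7.64 to 8.70 and 6.61 to 7.42 CPM without EPCAM. Mitochondrially encoded genes took 5.26% to 5.75% of the counts with the empty vector and 5.64% to 5.77% with SPNS2. The part of these differences in the results was not tested.

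The carrier family as a whole was expressed at nearly the same level in both groups, and the changes it held were small. Of the 47 members, 39 passed the filter on low counts and 8 did not. With edgeR, 10 of the 39 (25.6%) passed an adjusted p of 0.05, beside 24.5% of all 13308 features tested. The member share is therefore near the background, and the count is not a result about the family. SLC25A53, SLC25A42, SLC25A30 and SLC25A20 rose, and the 6 that fell included SLC25A33, SLC25A39, SLC25A11, SLC25A10 and SLC25A1. Of all features, 11.9% were called higher and 12.6% lower. The median log2 fold change was -0.01 over the members and 0.00 over all features. In bulk RNA, fewer cells of a type and less RNA per cell cannot be told apart.

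Changes above 0.3 on the absolute log2 scale were found in 1 of 39 tested members (2.56%), beside 1998 of all 13308 features. The libraries of both groups did not overlap for 15 members (38.5%), beside 40.1% of all features. Of these members 6 were higher, beside 19.8% of all features, and 9 were lower, beside 20.3%. All 10 called members were among the 15. Of the 29 members that were not called, 23 had a 95% interval of the difference that lay within 20% of no change in both directions. The counts of falls depended on single libraries: 6 members fell with all libraries, 3 when empty vector library 3 or SPNS2 library 2 was left out, and 2 when SPNS2 library 1 was. Calls of 5 members held in all 6 fits that left out 1 library, among them SLC25A53, SLC25A42, SLC25A30 and SLC25A39.

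**Figure D1:**
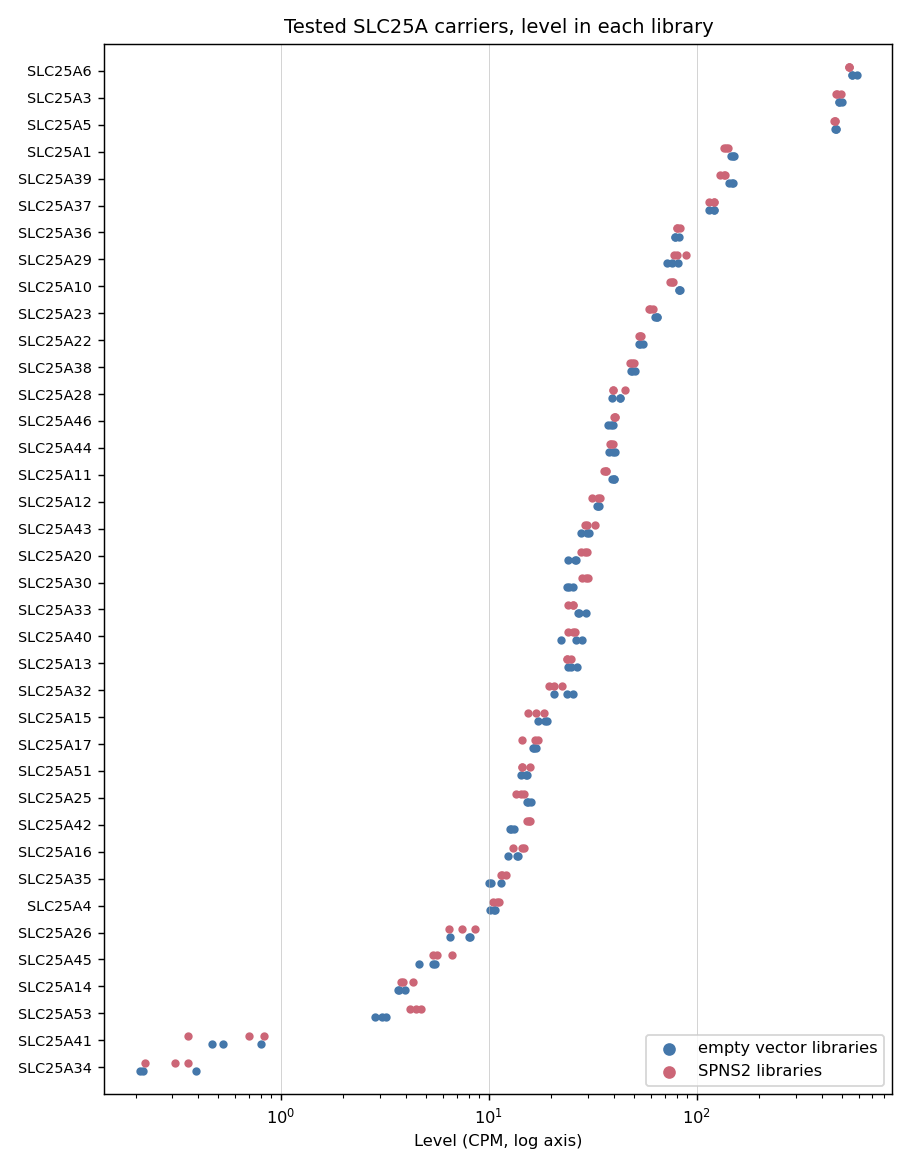
Level of 38 of the 39 tested SLC25A genes in CPM on a log axis, with 1 dot for each of 3 empty vector (blue) and 3 SPNS2 (red) libraries. SLC25A6, SLC25A3 and SLC25A5 stand apart at 459 to 588 CPM, and the dots of both groups lie close together for most genes.

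Most carrier transcripts belonged to a few genes of ATP supply. SLC25A6, SLC25A5 and SLC25A3 together took 51.8% to 52.4% of all member counts in each library. Per kilobase of the median coding transcript of GENCODE 29, the mean level was 364 CPM for SLC25A5, 358 for SLC25A3, 268 for SLC25A6 and 167 for SLC25A39. The order depends on the transcript taken as length, since with the longest coding transcript SLC25A5 stayed at rank 1 and SLC25A3 stood at rank 5. Members together took 0.296%, 0.289% and 0.289% of the counts in the empty vector libraries and 0.284%, 0.284% and 0.289% in the SPNS2 libraries. Across the 39 tested members, level and log2 fold change had a Spearman correlation of -0.42, beside -0.12 across all 13308 features. These points are genes measured in the same 6 libraries and are no independent replicates. The 4 genes that rose had mean levels of 3.74 to 27.1 CPM, and the 6 that fell had mean levels of 26.3 to 144 CPM.

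**Figure D2:**
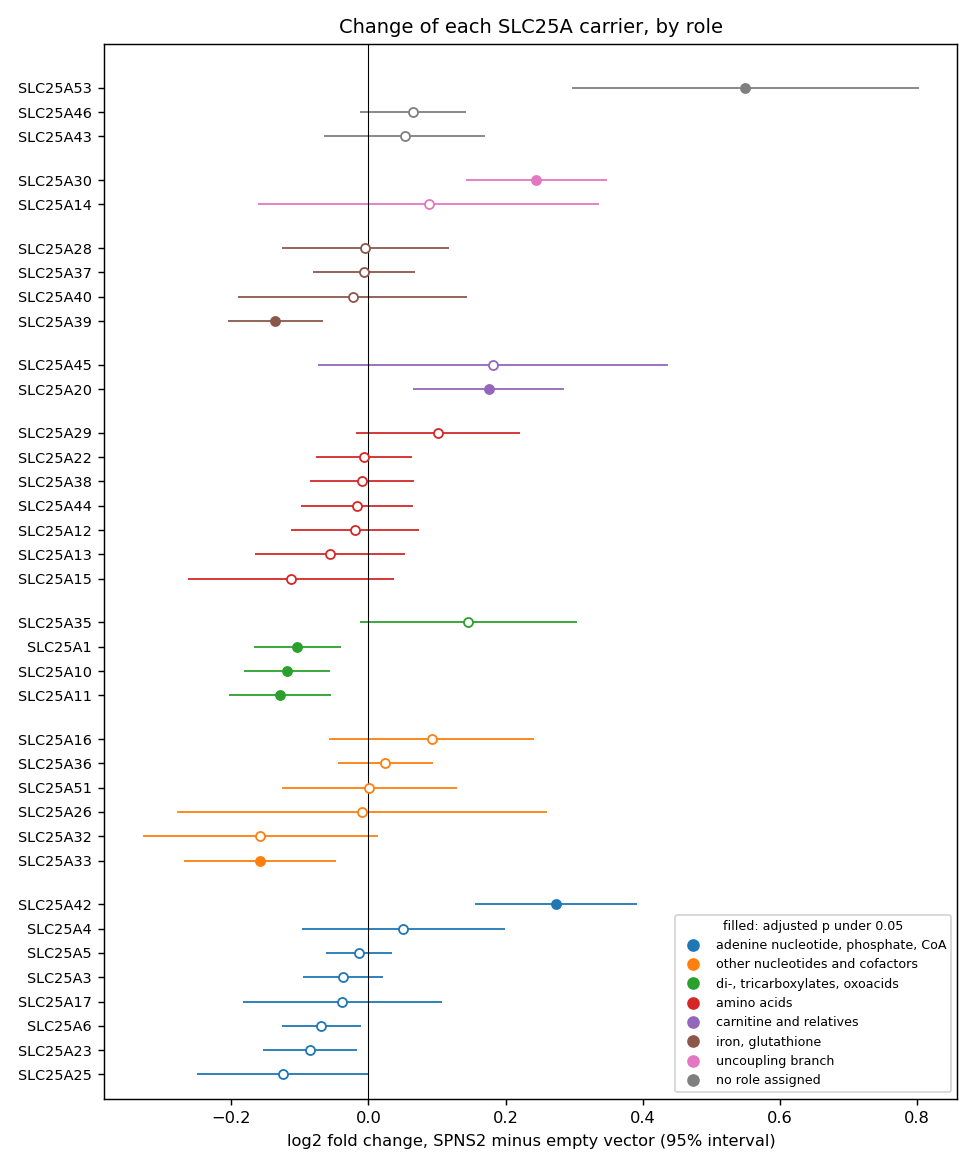
Log2 fold change (SPNS2 minus empty vector) of 36 tested SLC25A genes with a mean of at least 1 CPM, with 95% intervals, grouped and coloured by role; filled points had an adjusted p under 0.05. SLC25A53 lies farthest from 0 at 0.55, and every other gene drawn lies between -0.16 and 0.27.

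The ADP/ATP carriers exchange ATP made in the matrix for cytosolic ADP, and none of them passed with edgeR, DESeq2 or limma voom, with SLC25A6 alone at an unadjusted p under 0.05. SLC25A5 (ENSG00000005022.6), the form of dividing cells, was at 461, 468 and 467 CPM with the empty vector and 464, 459 and 460 CPM with SPNS2. Its groups overlapped, and its log2 fold change was -0.01 with a 95% interval of -0.06 to 0.03. SLC25A6 (ENSG00000169100.14), which lies in the pseudoautosomal region of the X chromosome, was at 588, 555 and 557 CPM with the empty vector and 540, 542 and 540 CPM with SPNS2. Every SPNS2 library was below every empty vector library, and empty vector library 1 was the highest. The log2 fold change of SLC25A6 was -0.07 (95% interval -0.13 to -0.01, adjusted p = 0.0803 by edgeR), and -0.04 without empty vector library 1. SLC25A4 (ENSG00000151729.11), the heart and muscle form, was at 10.7, 10.6 and 10.1 CPM against 11.2, 11.0 and 10.4 CPM, with overlapping groups. SLC25A31, the germ cell form, had 0 counts in all libraries.

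Within the ADP/ATP carriers the shares of the genes lay close together in both groups, but the groups did not overlap for SLC25A6, SLC25A5 or SLC25A4. For levels, the groups did not overlap for 40.1% of all features. The shares add up to the whole, so a lower share of one gene raises the others, and they are not separate results. SLC25A6 gave 53.7% to 55.5% of the counts of these carriers with the empty vector and 53.2% to 53.5% with SPNS2. SLC25A5 gave 43.5% to 45.3% and 45.4% to 45.7%, and SLC25A4 gave 0.981% to 1.029% and 1.033% to 1.10%. SLC25A5 has many processed pseudogenes, and 25.5% of the 31-base words in its coding transcripts also stand in transcripts of other genes. Its pseudogene rows held almost no counts, such as 1 count over the 6 libraries for SLC25A5P3, the gene that shares the most of these words.

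SLC25A3 (ENSG00000075415.15), which brings phosphate into the matrix for ATP synthesis, was at 501, 486 and 485 CPM against 467, 475 and 492 CPM. Its groups overlapped (log2 fold change -0.04, 95% interval -0.10 to 0.02). The ATP-Mg/phosphate carriers adjust the adenine nucleotide pool of the matrix. SLC25A23 was at 63.8 ± 0.709 and 60.1 ± 1.37 CPM and SLC25A25 at 15.5 ± 0.389 and 14.2 ± 0.641 CPM (SD, n = 3 each), without overlap. Neither passed (adjusted p = 0.0699 and 0.138 by edgeR). SLC25A41, another member of that group, stood at 0.599 ± 0.180 and 0.630 ± 0.246 CPM (SD, n = 3 each), with an interval of -0.73 to 0.82 on the log2 scale that leaves its change unresolved at this depth.

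SLC25A42 (ENSG00000181035.14), which imports coenzyme A into the matrix, was the one member of the adenine nucleotide group that rose. Its level was 12.7, 13.2 and 12.7 CPM with the empty vector and 15.6, 15.7 and 15.3 CPM with SPNS2. All SPNS2 libraries lay above all empty vector libraries. The log2 fold change was 0.27 (SE 0.0538, adjusted p = 0.00385 by edgeR), a rise of 20.9%, and it ran from 0.26 to 0.29 with each library left out. SLC25A17, the peroxisomal carrier of coenzyme A and related nucleotides, was at 16.6 ± 0.248 and 16.1 ± 1.41 CPM (SD, n = 3 each), with overlap.

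Carriers of di- and tricarboxylates connect the citric acid cycle with the cytosol, and 3 of 5 tested members of this group fell, beside 12.6% of all features called lower. With edgeR, 0 of them passed when SPNS2 library 1 was left out, and 1 passed without empty vector library 3 or SPNS2 library 2. SLC25A11 (ENSG00000108528.14), the oxoglutarate-malate exchanger of the malate-aspartate shuttle, was at 39.3, 40.1 and 40.0 CPM with the empty vector and 36.6, 35.9 and 36.7 CPM with SPNS2. SLC25A10 (ENSG00000183048.12), which exchanges malate or succinate for phosphate, was at 81.8, 82.3 and 82.7 CPM against 74.4, 76.5 and 76.3 CPM. SLC25A1 (ENSG00000100075.10), which exports citrate for fatty acid synthesis, was at 151, 146 and 149 CPM against 135, 138 and 142 CPM. For each of these genes every SPNS2 library was below every empty vector library. The log2 fold change by edgeR was -0.13 for SLC25A11 (SE 0.0337, adjusted p = 0.0171), -0.12 for SLC25A10 (SE 0.0288, adjusted p = 0.0118) and -0.10 for SLC25A1 (SE 0.0290, adjusted p = 0.0233).

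In percent the changes were -8.56%, -7.91% and -6.94%, and each call was lost when some single library was left out. For SLC25A10 this was SPNS2 library 1 (adjusted p = 0.0532). SLC25A11 did not pass without empty vector library 3 (0.0691), SPNS2 library 1 (0.0553) or SPNS2 library 2 (0.0584), nor by DESeq2 (0.0923). SLC25A1 did not pass without empty vector library 1 (0.0559) or 3 (0.0622) or without SPNS2 library 1 (0.0973) or 2 (0.0682), nor with upper quartile scaling (0.0501). Their direction stayed the same in all these fits. SLC25A10 shares 58.3% of its 31-base words with a read-through transcript that joins it to a neighbouring gene, and the row of that transcript held 6 counts in empty vector library 1 and 0 in the other libraries. Of the remaining genes of the group, SLC25A35, with no settled substrate, was at 10.6 ± 0.737 and 11.7 ± 0.363 CPM (SD, n = 3 each). Its SPNS2 libraries all lay above its empty vector libraries, at the closest 11.419 against 11.415 CPM. SLC25A35 did not pass (log2 fold change 0.15, adjusted p = 0.173 by edgeR). SLC25A34 was at 0.272 ± 0.101 and 0.296 ± 0.0674 CPM. The oxoadipate carrier SLC25A21 had 6 counts over all libraries and was not tested.

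**Figure D3:**
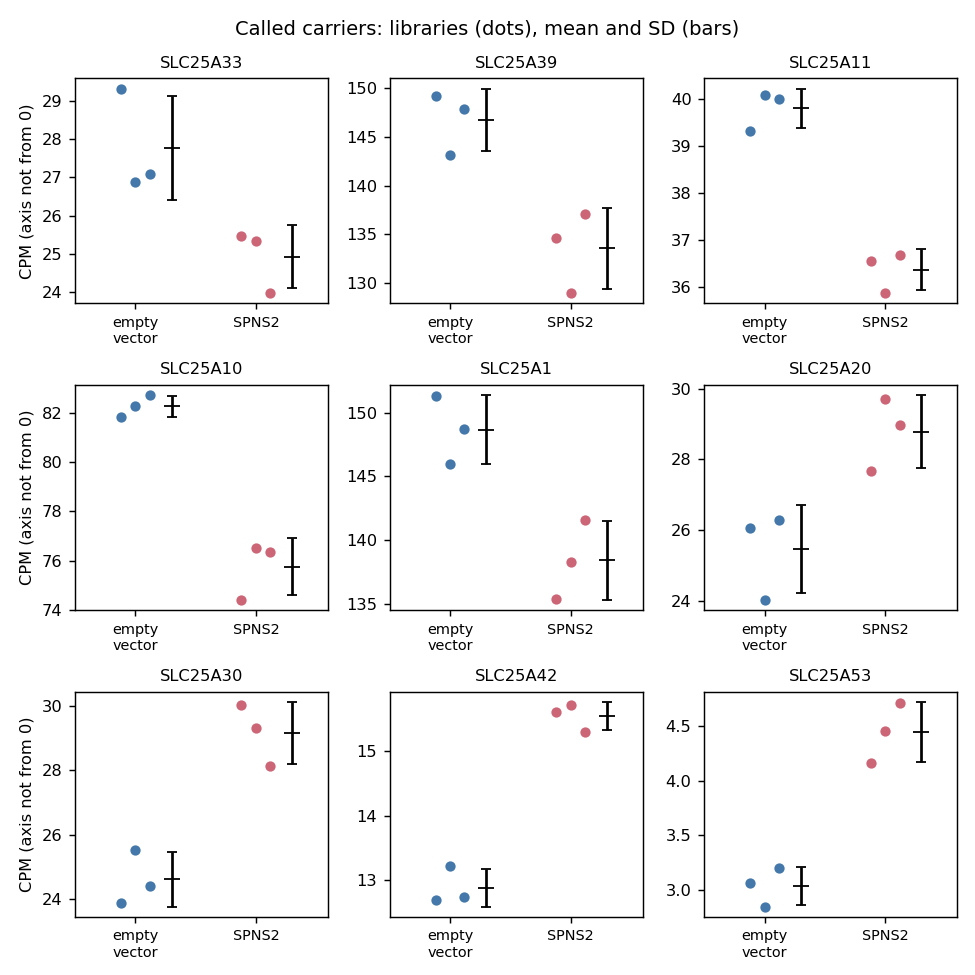
CPM of 9 of the 10 called SLC25A genes in each library (dots; axes do not start at 0), with the mean and SD of each group of 3 libraries (bars). In each panel the dots of the groups do not overlap, and SLC25A53, at 3.03 and 4.45 CPM, shows the widest relative step.

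Among the carriers of other nucleotides and of cofactors, SLC25A33 (ENSG00000171612.7) and SLC25A36 (ENSG00000114120.14) import pyrimidine nucleotides for mitochondrial DNA and RNA synthesis. SLC25A33 was at 29.3, 26.9 and 27.1 CPM against 25.5, 25.3 and 24.0 CPM, without overlap (log2 difference -0.16, SE 0.0505, edgeR adjusted p = 0.0413). SLC25A36 was at 78.6, 82.0 and 78.8 CPM against 83.0, 79.9 and 80.4 CPM, with overlap and a log2 fold change of 0.02 (95% interval -0.04 to 0.09). The call of SLC25A33 was lost without empty vector library 1 (adjusted p = 0.131) or 3 (0.0570) and without SPNS2 library 1 (0.0750), 2 (0.0716) or 3 (0.131). Upper quartile scaling (0.0608) and DESeq2 (0.0956) did not call it either. A look-alike processed pseudogene on chromosome 11, AC135977.1, shares 19.6% of the 31-base words of SLC25A33, and its row held 32 counts in SPNS2 library 1, 33 in SPNS2 library 3 and 0 in the other 4 libraries. With those counts added to SLC25A33, a choice made after the values were seen, the log2 fold change was -0.12 and the adjusted p was 0.104 by edgeR.

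Promoter letters were read for both pyrimidine carriers, since one was called and its relative was not. Windows from 250 bases before to 50 after the RefSeq start (GRCh38.p14) were found for 39 of the 47 members. They were searched on both strands for CACGTG, the E-box bound by MYC and MAX, for TGACGTCA, the cyclic AMP response element, and for the element of NRF1, a regulator of mitochondrial genes (GCGC, any base, then TGCGC). Both SLC25A33 and SLC25A36 hold the E-box and the cyclic AMP element, in capitals in these 70-base stretches upstream of the start. Their places differ: the matches span bases 49 to 21 before the start in SLC25A33 (chr1:9539395-9539464, plus strand) and bases 143 to 110 before it in SLC25A36 (chr3:140941675-140941744, plus strand). The stretch of SLC25A11, which fell, holds the NRF1 element at 17 to 8 bases before the start (chr17:4940047-4940116, minus strand).
SLC25A33: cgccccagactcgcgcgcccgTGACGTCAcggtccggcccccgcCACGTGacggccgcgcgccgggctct
SLC25A36: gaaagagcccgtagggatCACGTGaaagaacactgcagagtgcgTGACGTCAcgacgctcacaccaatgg
SLC25A11: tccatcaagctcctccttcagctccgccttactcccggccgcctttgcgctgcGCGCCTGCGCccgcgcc

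The E-box stood in 7 of 39 member promoters (17.9%) and in 7.43% of all 27305 promoters of this length. It was found in 1 of 8 called members with a window and in 5 of 24 tested members that were not called. The cyclic AMP element stood in 3 member promoters (7.69%, beside 1.98% of all) and the NRF1 element in 5 (12.8%, beside 6.28% of all). Each of these elements was found in 1 of 8 called members and in 2 of 24 tested members that were not called. Of the 10116 promoters of tested genes, 10.1% held the E-box, 3.12% the cyclic AMP element and 11.9% the NRF1 element. No matches of different motifs overlapped in the members. Such matches describe letters and not binding.

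Other cofactor carriers differed by less than the replicates could resolve. SLC25A32 (ENSG00000164933.12), the folate or FAD carrier, was at 20.6, 23.9 and 25.3 CPM against 22.5, 19.4 and 20.6 CPM, with overlap and a log2 fold change of -0.16 (adjusted p = 0.171 by edgeR). Empty vector library 1 was the lowest of its group, and without it the value was -0.24 (adjusted p = 0.0261). Of its 31-base words, 88.0% also stand in a read-through transcript, whose row held 0 counts. SLC25A26, which imports S-adenosylmethionine for methylation in the matrix, was at 7.55 ± 0.926 and 7.49 ± 1.07 CPM (SD, n = 3 each). SLC25A16, linked to coenzyme A in the matrix, was at 13.2 ± 0.754 and 14.1 ± 0.856 CPM. SLC25A51, the NAD carrier, was at 14.9 ± 0.476 and 14.9 ± 0.699 CPM. Its near-copy SLC25A52 held 4 to 10 counts a library and was not tested, and since 43.6% of the words of SLC25A51 occur in other genes, the division of reads among these copies is uncertain.

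No amino acid carrier passed the test, out of 7 tested with edgeR, and the count was also 0 at an unadjusted p under 0.05, with DESeq2 and with limma voom. The aspartate-glutamate exchangers SLC25A12 and SLC25A13, which drive the malate-aspartate shuttle, had log2 fold changes of -0.02 and -0.06, with 95% intervals of -0.11 to 0.07 and -0.16 to 0.05. The glutamate carrier SLC25A22 had an interval of -0.08 to 0.06 around -0.01, and its relative SLC25A18 had 4 counts in all. SLC25A38, which supplies glycine for haem synthesis, was at 50.5, 48.6 and 48.1 CPM against 47.5, 49.1 and 49.8 CPM, with overlap and a 95% interval of -0.09 to 0.07 on the log2 scale. SLC25A44, a carrier of branched-chain amino acids, had an interval of -0.10 to 0.06. The groups overlapped for all 7.

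The ornithine carrier SLC25A15 of the urea cycle was at 18.3 ± 0.937 and 16.9 ± 1.45 CPM (SD, n = 3 each), with an interval of -0.26 to 0.04. Its intronless relative SLC25A2 had 4 counts in all and was not tested. SLC25A29, which carries basic amino acids, was at 81.3, 71.6 and 76.3 CPM against 77.5, 80.3 and 88.5 CPM. SPNS2 library 3 was the highest and empty vector library 2 the lowest, and the groups overlapped (adjusted p = 0.206 by edgeR).

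The carnitine-acylcarnitine exchanger SLC25A20 (ENSG00000178537.10), which admits long-chain fatty acids for beta oxidation, rose from 26.1, 24.0 and 26.3 CPM to 27.7, 29.7 and 28.98 CPM. The groups did not overlap, and the log2 fold change was 0.18 (SE 0.0504, adjusted p = 0.0265 by edgeR). SLC25A20 did not pass without empty vector library 2 (0.0683) or without SPNS2 library 2 (0.0922) or 3 (0.0713), nor by DESeq2 (0.0535). Among its sequence relatives, SLC25A45 was at 5.18 ± 0.472 and 5.89 ± 0.700 CPM (SD, n = 3 each) and did not pass. SLC25A47, a liver gene, had 17 counts over all libraries, and SLC25A48 had 0 counts in each empty vector library and 2, 1 and 3 in the SPNS2 libraries, which is no more than a count of 0 allows.

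Iron enters mitochondria through the mitoferrins, and neither of them passed the test. SLC25A37 (ENSG00000147454.14), mitoferrin-1 of erythroid cells, was at 121, 115 and 121 CPM with the empty vector and 121, 121 and 115 CPM with SPNS2. SLC25A28 (ENSG00000155287.11), the widely expressed mitoferrin-2, was at 42.8, 39.2 and 42.6 CPM against 39.5, 39.7 and 45.2 CPM. The groups overlapped for both genes. Their 95% intervals on the log2 scale were -0.08 to 0.07 and -0.13 to 0.12. SLC25A37 gave 73.9% to 74.6% of the mitoferrin counts with the empty vector and 71.7% to 75.4% with SPNS2.

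SLC25A39 (ENSG00000013306.16), which imports glutathione, fell from 149, 143 and 148 CPM to 135, 129 and 137 CPM. Each SPNS2 library was below each empty vector library. The log2 fold change was -0.14 (SE 0.0316, adjusted p = 0.00969 by edgeR), a fall that held in every fit leaving out 1 library, at -0.16 to -0.11. Its paralog SLC25A40 was at 22.2, 28.2 and 26.4 CPM against 25.9, 24.0 and 25.3 CPM, with overlap and an interval of -0.19 to 0.14. Whether the change differs between these paralogs was not tested.

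In the branch related to the uncoupling proteins, SLC25A30 (ENSG00000174032.17) rose from 23.9, 25.5 and 24.4 CPM to 30.0, 29.3 and 28.1 CPM. The groups were well apart (log2 difference 0.24, SE 0.0470, edgeR adjusted p = 0.00333), and the value ran from 0.22 to 0.27 with each library left out. SLC25A14 was at 3.76 ± 0.150 and 3.99 ± 0.298 CPM (SD, n = 3 each) and did not pass. SLC25A27, found mainly in brain, had 3 to 10 counts a library and was not tested.

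SLC25A53 (ENSG00000269743.3), an X-linked carrier with no assigned substrate, had the largest change of the tested members. It was at 3.06, 2.85 and 3.20 CPM with the empty vector and 4.16, 4.46 and 4.72 CPM with SPNS2, without overlap. The log2 fold change was 0.55 (SE 0.115, adjusted p = 0.00546 by edgeR), a rise of 46.4% with a 95% interval of 0.30 to 0.80 on the log2 scale. It passed without each single library. Of its 31-base words, 12.8% stand in other genes, with TMSB15B sharing the most (6.59%). SLC25A46, an outer membrane protein of mitochondrial dynamics, was at 38.5 ± 1.11 and 40.2 ± 0.306 CPM (SD, n = 3 each), without overlap but without a call (adjusted p = 0.217 by edgeR). SLC25A43 was at 29.3 ± 1.47 and 30.4 ± 1.67 CPM.

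**Figure D4:**
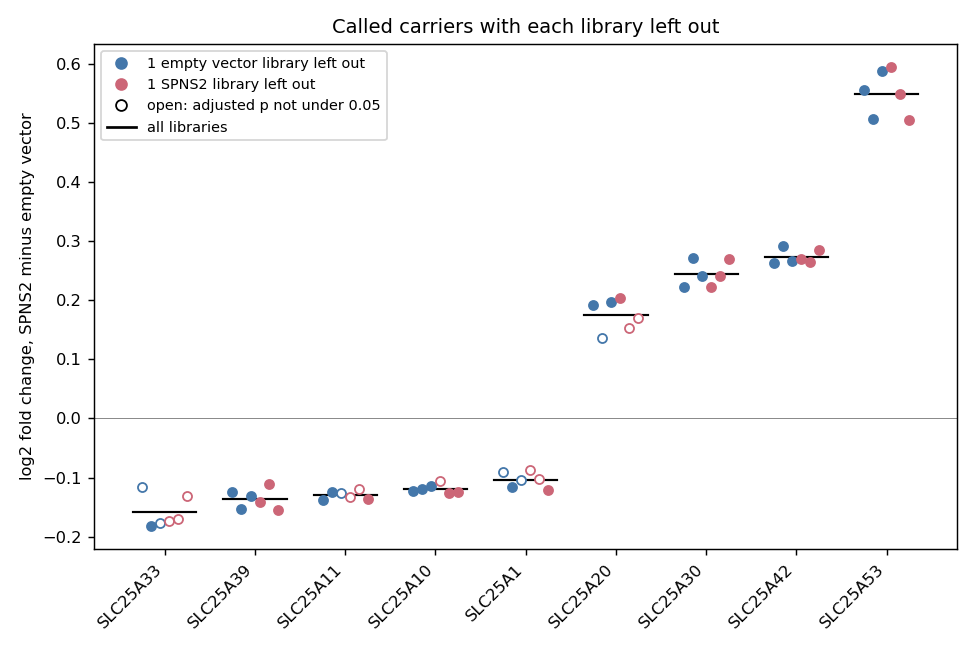
Log2 fold change of 9 of the 10 called SLC25A genes with all libraries (black line) and with each library left out in turn (dots; open where the adjusted p was not under 0.05). All dots keep the sign of the line, and SLC25A33 passed in 1 of the 6 fits.

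Genes that share the carriers' fold, insert them into the membrane or work on the same metabolites were described from lists. Of 117 listed genes, 108 were tested, and 8 rose and 24 fell (29.6%), beside the 24.5% of all features. The median log2 fold change of the 108 was -0.03, beside 0.00. Rises numbered 5 with empty vector library 1 or SPNS2 library 3 left out and 4 with SPNS2 library 1 left out. Falls numbered 15 to 17 when 1 library was left out, and 15 was the count without SPNS2 library 1. Counts of a list that single libraries moved are given with the list.

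Carrier fold proteins with other symbols held 1 fall among 3 tested. UCP2, the uncoupling protein of blood cells, was at 132, 137 and 136 CPM with the empty vector and 117, 120 and 119 CPM with SPNS2, without overlap. It fell by 0.18 in log2 units (SE 0.0286, edgeR adjusted p = 0.000909) and passed in all 6 fits with a library left out. MTCH1, an outer membrane protein of the same fold, was at 173 ± 6.02 and 179 ± 7.75 CPM (SD, n = 3 each) and did not pass.

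Carriers are made in the cytosol and pass the outer membrane through the TOM complex before small TIM chaperones and TIM22 insert them. Of 12 tested genes of this route, 2 fell and none rose (16.7% called, beside 24.5% of all features), with a median of -0.05. TIMM22, the gene of TIM22, was listed but not tested, and it is named here after its values were seen. Its row held 504 counts in empty vector library 3, 457 in SPNS2 library 2 and 0 in each other library. TOMM40, the pore of the outer membrane, fell from 167 ± 2.42 to 146 ± 1.23 CPM, and TIMM8A, a chaperone of the intermembrane space, fell from 12.2 ± 0.449 to 10.2 ± 0.358 CPM (SD, n = 3 each). TIMM8B, with the next smallest p, did not pass (adjusted p = 0.0663 by edgeR). TIMM8A passed in 4 of the 6 fits with a library left out. A single fall was left by DESeq2 and when empty vector library 1 or SPNS2 library 3 was missing.

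Other mitochondrial membrane transporters held 4 rises and 6 falls among 17 tested genes (58.8% called, beside 24.5% of all features, with 11.9% higher and 12.6% lower), with a median of -0.08. DESeq2 called 2 rises and 5 falls. SFXN3, a sideroflexin, rose from 92.2 ± 1.98 to 110 ± 1.52 CPM, while SFXN1, which imports serine, fell from 54.2 ± 1.02 to 47.6 ± 0.292 CPM (SD, n = 3 each). MCU, the pore of the calcium uniporter, was at 30.7, 34.4 and 32.4 CPM against 28.2, 27.9 and 27.2 CPM, and it fell without overlap. MPC1 and MPC2, named after their values were seen, form the pyruvate carrier outside the SLC25 family. They rose by 0.14 and 0.17 in log2 units (edgeR adjusted p = 0.0406 and 0.0154) and passed in 1 and 3 of the 6 fits with a library left out. In those fits the list held 1 rise when empty vector library 1 or SPNS2 library 1 or 3 was missing, and 2 rises when empty vector library 3 or SPNS2 library 2 was.

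Shuttle enzymes act on the substrates of SLC25A1, SLC25A10 and SLC25A11. Of 12 tested, 4 fell and 1 rose (41.7% called, beside 24.5% of all features), with a median of -0.05. ACLY, which cleaves exported citrate to acetyl-CoA, was at 345, 331 and 326 CPM with the empty vector and 294, 302 and 288 CPM with SPNS2, and it fell without overlap (log2 fold change -0.18, edgeR adjusted p = 0.00113). MDH2, the matrix malate dehydrogenase, fell from 275 ± 5.54 to 257 ± 3.83 CPM, and ME3, a mitochondrial malic enzyme, rose from 21.2 ± 1.18 to 25.6 ± 1.09 CPM (SD, n = 3 each). The other falls, named after their values were seen, were ME2 and GOT2. With a library left out, MDH2 passed in 3 of the 6 fits and ME2 and GOT2 in 2 each. A single enzyme fell when empty vector library 2 or SPNS2 library 1 was missing, and 2 fell with upper quartile scaling.

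ATP synthase subunits use what the ADP/ATP and phosphate carriers deliver. Of 15 tested, 2 fell and none rose (13.3%, near the 12.6% of all features called lower), with a median of 0.00. ATP5MC3, of the membrane ring, fell by 0.09 and ATP5F1A, of the catalytic head, by 0.08 in log2 units. ATP5MC3 passed in 2 of the 6 fits with a library left out and ATP5F1A in 0 of them (edgeR). With all libraries, 0 subunits passed under upper quartile scaling, 1 at a mean of at least 5 CPM, and 2 by DESeq2 and by limma voom. ATP5F1D, with the next smallest p, had an adjusted p of 0.0571 by edgeR.

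Of 16 tested genes for mitochondrial iron, haem and glutathione, 2 rose and 2 fell (25% called, near the 24.5% of all features), with a median of -0.02. GSR, glutathione reductase, fell from 38.9 ± 1.46 to 33.4 ± 1.31 CPM, and ISCU, the iron-sulphur cluster scaffold, rose from 48.8 ± 0.240 to 53.6 ± 1.45 CPM (SD, n = 3 each). ALAS1, the first enzyme of haem synthesis, rose from 98.6, 92.7 and 91.6 CPM to 103, 105 and 105 CPM. AFG3L2, a matrix protease known to degrade SLC25A39 protein and named after its value was seen, fell by 0.10 in log2 units (edgeR adjusted p = 0.0463), and it passed in 1 of the 6 fits with a library left out. Upper quartile scaling gave 3 rises and 1 fall. Leaving out any empty vector library, or SPNS2 library 1 or 2, left 1 fall, and leaving out SPNS2 library 1 left 1 rise.

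Among 11 tested enzymes of mitochondrial folate, glycine, ornithine and proline metabolism, 4 fell and none rose (36.4% called, beside 24.5% of all features), with a median of -0.08. SHMT2, which makes glycine in the matrix, was at 275, 271 and 266 CPM with the empty vector and 208, 211 and 215 CPM with SPNS2. The groups were far apart, and its log2 fold change of -0.36 (SE 0.0261, edgeR adjusted p = 6.48e-06) was the largest in size among the listed partners tested. ALDH18A1, of proline synthesis, fell from 193 ± 4.34 to 171 ± 1.24 CPM, and MTHFD1L, which makes formate, from 126 ± 0.982 to 116 ± 2.35 CPM (SD, n = 3 each). MTHFD2, named after its value was seen, fell by 0.08 in log2 units but passed in 1 of the 6 fits with a library left out. A single gene rose without empty vector library 3.

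Of 12 tested genes of the carnitine shuttle and beta oxidation, 1 rose and 2 fell (25% called, again near 24.5%), with a median of -0.02. ACADM, an acyl-CoA dehydrogenase, rose from 58.6 ± 0.405 to 66.9 ± 3.12 CPM, while HADHA, of the trifunctional protein, fell from 329 ± 5.78 to 302 ± 3.81 CPM (SD, n = 3 each). ACADVL, the dehydrogenase of very long chains, fell from 176 ± 6.39 to 161 ± 5.73 CPM and passed in 2 of the 6 fits with a library left out. A single gene of the list fell in the fits lacking empty vector libraries 1 and 3 or SPNS2 libraries 1 and 2, each left out alone.

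Of 10 tested regulators of mitochondrial biogenesis, PPRC1, a coactivator related to PGC-1, fell by 0.10 in log2 units (SE 0.0280, edgeR adjusted p = 0.0208). None of the 10 rose (10% called, beside 24.5% of all features), and their median was -0.03. The call of PPRC1 was absent without empty vector library 2 and without SPNS2 library 1 or 3. PPARGC1B and TFB2M, with the next smallest p, did not pass (adjusted p = 0.0933 and 0.203 by edgeR).

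**Figure D5:**
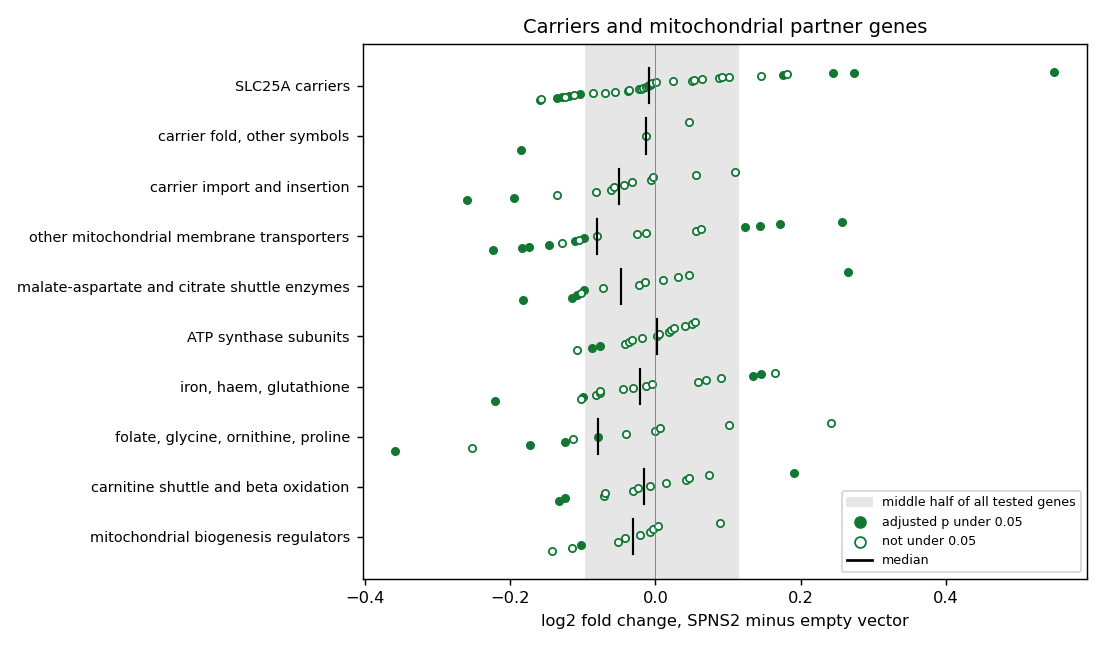
Log2 fold change of 36 tested SLC25A genes with a mean of at least 1 CPM and of 9 lists of mitochondrial partner genes; filled dots had an adjusted p under 0.05, black bars are medians, and the grey band spans the quartiles of all tested features (-0.10 to 0.11). The list medians lie between -0.08 and 0.00, inside the band.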

How the data were processed

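RNA was polyadenylated RNA from 6 libraries made with a stranded mRNA kit, per the labels' protocols. The unit of the deposited table is the estimated count per gene. Salmon, with no version, is the quantifier in the submitters' processing notes. The build, annotation and strand setting were not stated in any source used here. None of the deposited values needed rounding (0 were not whole).

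Symbols were matched by Ensembl ID without version (29121 of 34370). The filter was filterByExpr (minimum count 10, minimum total 15), TMM factors ran from 0.993 to 1.01, and group was the only term of the quasi-likelihood fit in edgeR 4.0.16 (R 4.3.3). P-values were adjusted by Benjamini-Hochberg over all 13308 features and called under 0.05. Standard errors were derived from the log2 fold change and F, and 95% intervals from them. Values with ± are the mean and SD of 3 libraries, with the empty vector first. Replicates differed beyond sampling noise (chi-square per degree of freedom 3.02 to 5.84). The fit was tested on simulated counts.

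Members and lists were chosen with earlier results of these data known. The rule names every member, at most 3 genes with the smallest p in each list, and UCP2 and MTCH1. It gives values per library for called members, ADP/ATP carriers and mitoferrins, and those of other genes were added after seeing them. Words of 31 bases were compared over GENCODE 29 transcripts, and promoter windows came from RefSeq. Protein sequences were not used here. A tested member is included in the counts but not reported here by name or value. Alternatives were DESeq2 (1.42.0), limma voom (3.58.1), other scalings and filters, a replicate block, leaving out each library and, added after seeing the data, a sum of SLC25A33 with its look-alike.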

Additional observations from a re-analysis of the deposited data

How the results depend on the processing

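No called member changed sign under any alternative run, while members near 0 without a call did, such as SLC25A40 (-0.02, and 0.05 without empty vector library 2). DESeq2 size factors, limma voom and no filter on low counts each called the same 10 members as edgeR with TMM. Upper quartile scaling called 4 rises and 4 falls, losing SLC25A1 and SLC25A33, and moved the share of rises among all called features from 48.4% to 55.7%. The DESeq2 Wald test called 3 and 4, losing SLC25A11, SLC25A20 and SLC25A33. At a mean of at least 5 CPM, SLC25A53 was not tested and 3 members rose. With 1 library left out, 3 to 4 members rose and 2 to 6 fell, 4 to 7 partner genes rose and 15 to 17 fell, and 1079 to 1294 of all features rose and 1167 to 1444 fell, against 1580 and 1683 with all libraries. These fits have fewer samples. Of the 130 alternative values of called members, 23 missed the threshold, and SLC25A32 alone gained a call (without empty vector library 1). A replicate block gave 4 rises and 5 falls, losing SLC25A1, with 8 and 19 for partner genes (0 falls among ATP synthase subunits) and 1301 and 1422 over all features. Libraries with the same number deviated from their group means with correlations of 0.0312, 0.0375 and -0.0193. Not every library correlated best with its own number. Values this near 0 cannot settle whether libraries were paired, and the labels give only a number. Depth limits SLC25A34 and SLC25A41, the tested members under 1 CPM, and the 8 members not tested, with at most 47 counts each over all libraries.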

Other observations

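Of 42 rows for SLC25A pseudogenes, 32 had 0 counts in every library. The row with the most counts was SLC25A51P4, a processed copy of the NAD carrier gene. It held 369, 268 and 258 counts in the 3 empty vector libraries, and 263, 258 and 279 in those with SPNS2.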
